A study of Mus musculus with 6 samples.

Results

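The canonical Wnt pathway was represented by 10 genes, found by their symbols in a table of 22332 genes: Axin2, Lef1, Tcf7, Tcf7l1, Tcf7l2, Ctnnb1, Sp5, Nkd1, Lgr5 and Rnf43. They were followed in CGR8, an embryonic stem cell line of the mouse that is kept pluripotent in serum (FBS) and LIF. One group of 3 libraries came from cells transfected with an siRNA pool against Rsl24d1 (siRSL24D1), which encodes a factor of large ribosomal subunit assembly, and its reference of 3 libraries from cells transfected with a non-targeting pool (siCtrl). Total RNA was collected 48 hours after transfection, depleted of ribosomal RNA and sequenced. All cells of both groups received siRNA and the same medium, and a single pool was used in each group.

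Wnt proteins are secreted ligands that bind Frizzled receptors and the co-receptors Lrp5 and Lrp6. In their absence, a destruction complex built on Axin and Apc marks beta-catenin, the product of Ctnnb1, for degradation; binding of a Wnt halts that complex, and beta-catenin enters the nucleus and acts with the TCF/LEF transcription factors. Several target genes, Axin2, Nkd1 and Rnf43 among them, encode inhibitors of the pathway and so form negative feedback. In mouse embryonic stem cells, Wnt activity supports self-renewal, and Tcf7l1 acts mainly as a repressor of pluripotency genes.

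The TCF/LEF factors bind DNA that holds the core CTTTGA, or TCAAAG on the other strand. RefSeq promoter windows on GRCm38.p6, from 250 bases before to 50 bases after a transcript start, were found for 9 of the 10 genes, all but Lgr5, with 16 windows in all. The core was present in 2 of these (12.5%), the window of Sp5 and 1 of the 4 windows of Lef1, which are both shown, beside the single window of Axin2, a common reporter gene of the pathway, in which these letters are absent. All 3 are printed 5′ to 3′ on the plus strand, the strand of each gene, and capitals mark the core.
Sp5, chr2:70474673-70474972, plus strand: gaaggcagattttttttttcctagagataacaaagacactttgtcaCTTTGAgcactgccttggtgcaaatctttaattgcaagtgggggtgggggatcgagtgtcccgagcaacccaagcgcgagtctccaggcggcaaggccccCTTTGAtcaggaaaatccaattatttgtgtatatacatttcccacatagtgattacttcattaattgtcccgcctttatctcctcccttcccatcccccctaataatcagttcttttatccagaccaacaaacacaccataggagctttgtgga
Lef1, chr3:131156044-131156343, plus strand: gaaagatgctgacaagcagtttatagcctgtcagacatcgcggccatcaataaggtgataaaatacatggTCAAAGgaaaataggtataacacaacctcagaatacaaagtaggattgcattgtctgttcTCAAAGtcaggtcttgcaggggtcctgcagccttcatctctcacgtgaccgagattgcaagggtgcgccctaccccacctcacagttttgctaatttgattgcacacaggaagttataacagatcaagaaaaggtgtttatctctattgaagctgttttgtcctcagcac
Axin2, chr11:108920099-108920398, plus strand: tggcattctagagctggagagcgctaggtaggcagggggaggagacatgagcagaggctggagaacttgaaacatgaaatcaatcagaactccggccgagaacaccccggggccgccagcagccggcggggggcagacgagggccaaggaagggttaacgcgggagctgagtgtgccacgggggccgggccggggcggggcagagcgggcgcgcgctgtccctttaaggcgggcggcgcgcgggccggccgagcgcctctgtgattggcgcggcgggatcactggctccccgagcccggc

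The Sp5 window holds the core in the direction of the gene, starting 204 and 104 bases before the transcript start. The Lef1 window belongs to a start inside the gene and holds the reverse form, starting 180 and 120 bases before that start. Over all genes, 16.0% of 32851 windows of the same length hold the core on either strand, and 1.73% hold it at least 2 times. These matches describe letters and no binding was measured.

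Library totals lay between 30943635 and 35214000 estimated counts. Rsl24d1 was at 53.8, 55.6 and 52.1 CPM in the siRSL24D1 libraries, against 99.4, 102.7 and 97.9 CPM in the siCtrl libraries. Levels are given as CPM, that is counts relative to the TMM-scaled library size, and a gene was called when its adjusted p from the quasi-likelihood test of edgeR, over 15084 genes tested, was under 0.05. Under that rule 21.2% of all genes rose and 20.0% fell. Of 10 pluripotent cell markers, all were detected and tested: Pou5f1 was at 482 ± 28.6 CPM in siRSL24D1 and 482 ± 37.9 CPM in siCtrl, and 1 marker, Zfp42, rose while 6 fell (Nanog, Tdgf1, Fgf4, Dppa5a, Esrrb and Utf1, the last of which did not pass in 10 of the 16 alternative settings). The summed level of the 10 markers was 2615 to 2745 CPM in siRSL24D1 and 3041 to 3428 CPM in siCtrl. Dppa5a and Tdgf1 had the largest falls in CPM. The mean of Dppa5a was 836 CPM in siRSL24D1 and 1158 CPM in siCtrl, and that of Tdgf1 was 434 and 668 CPM. Zfp42 went the other way, at 429 CPM in siRSL24D1 and 362 CPM in siCtrl, and Pou5f1, Sox2 and Klf4 did not pass. The lower sum therefore does not describe all 10 markers.

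Within each group, 1 library stood apart for several of the Wnt genes. On the log2 scale, Tcf7l1 was 1.10 higher in siCtrl 3 than the mean of siCtrl 1 and siCtrl 2, and in siRSL24D1 2 it differed by -1.003 from the mean of siRSL24D1 1 and siRSL24D1 3. Lef1 and Tcf7l2 showed the same pattern, at 0.66 and 0.64 in siCtrl 3 and at -0.51 and -0.68 in siRSL24D1 2. For 90% of all genes the first of these differences lay between -0.29 and 0.56 and the second between -0.47 and 0.31, and these 3 genes lay outside both ranges. The source of this unevenness was not tested, and the levels of the 10 genes are given for every library.

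Of the 10 genes, all of which passed the filter on low counts, 5 rose in siRSL24D1 and 0 fell, against 21.2% and 20.0% of all genes (edgeR). None fell at an unadjusted p under 0.05, in the DESeq2 test or in limma-voom either. The 5 that rose were Axin2, Sp5, Lgr5, Lef1 and Nkd1, each known as a target gene of the pathway. Rnf43, also a target gene, did not pass the test. The median log2 fold change of the 10 genes was 0.22, and that of all genes tested was 0.02. All siRSL24D1 libraries lay above all siCtrl libraries for 4 genes, Axin2, Sp5, Lgr5 and Nkd1, an arrangement seen in 26.8% of all genes. The number that rose was 3, namely Axin2, Sp5 and Lgr5, when siRSL24D1 1, siRSL24D1 3, siCtrl 1 or siCtrl 2 was left out.

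**Figure D1:**
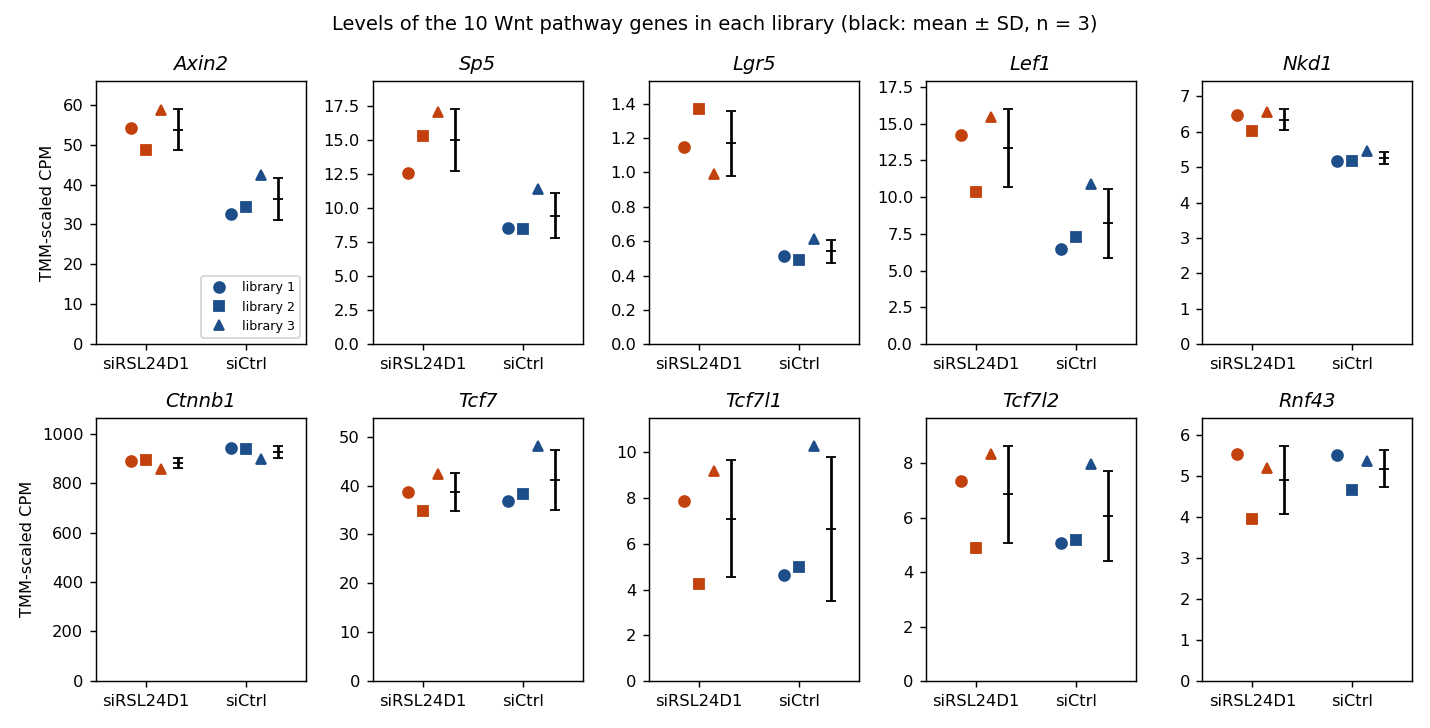
Level of each of the 10 genes in TMM-scaled CPM, with siRSL24D1 left of siCtrl, 1 point per library (circle 1, square 2, triangle 3) and the mean ± SD over 3 libraries in black. Axin2, Sp5, Lgr5 and Nkd1 have no overlap between the groups and are higher in siRSL24D1, while for Tcf7l1 and Tcf7l2 the libraries siRSL24D1 2, siCtrl 1 and siCtrl 2 are low and the other 3 are high.

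Among the receptors and their regulators, Lgr5 is a receptor for R-spondins, secreted proteins that strengthen Wnt signalling. Its estimated counts were 36.4, 48.3 and 32.6 in siRSL24D1, against 17.4, 16.0 and 21.002 in siCtrl, which made it the least abundant of the 10 genes. In CPM it was at 1.15, 1.37 and 0.99 in siRSL24D1 and at 0.51, 0.49 and 0.61 in siCtrl. Every siRSL24D1 library was above every siCtrl library, and Lgr5 had the largest fold change of the 10 genes, a log2 fold change of 1.11 ± 0.22 (SE; adjusted p = 0.00445). The call held in all 16 alternative settings (adjusted p = 0.00389 to 0.0216). The level remained low in both groups.

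Rnf43 encodes a ubiquitin ligase that removes Frizzled receptors from the cell surface and that R-spondins and Lgr proteins hold in check. It was at 5.54, 3.96 and 5.20 CPM in siRSL24D1, against 5.51, 4.67 and 5.36 CPM in siCtrl. The groups overlapped, with library 2 the lowest of each. The log2 fold change was -0.08, with a 95% interval from -0.41 to 0.24 (adjusted p = 0.668), and its sign changed without siRSL24D1 2 (0.052). An increase of the size seen for Axin2 lies outside that interval.

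In the cytoplasm, Axin2 is a scaffold of the destruction complex and a feedback inhibitor. It was at 54.1, 48.6 and 58.7 CPM in siRSL24D1, against 32.5, 34.4 and 42.3 CPM in siCtrl. The highest siCtrl library, siCtrl 3, was still below the lowest siRSL24D1 library. The means were 53.8 ± 5.08 CPM in siRSL24D1 and 36.4 ± 5.19 CPM in siCtrl (SD, n = 3 each), a log2 fold change of 0.56 ± 0.11 (SE; edgeR adjusted p = 0.00375). The call held in all 16 settings, with a log2 fold change between 0.49 and 0.67. Its relative Axin1, which is not a target gene, is described with the other pathway genes.

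Nkd1 encodes an inhibitor that acts on Dishevelled proteins. It was at 6.47, 6.01 and 6.56 CPM in siRSL24D1, against 5.17, 5.16 and 5.45 CPM in siCtrl. The groups did not overlap, but the difference was the smallest of the 5 rises, with a log2 fold change of 0.27 and a standard error of 0.09 (adjusted p = 0.0359). The call was lost with upper-quartile scaling (adjusted p = 0.0527), without a filter (0.0507), in the DESeq2 test (0.158), and when siRSL24D1 1 (0.0848), siRSL24D1 3 (0.109), siCtrl 1 (0.105), siCtrl 2 (0.117) or siCtrl 3 (0.0535) was left out.

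In the nucleus, Ctnnb1 was the most abundant of the 10 genes. It was at 890.0, 894 and 858 CPM in siRSL24D1, against 941, 939 and 896 CPM in siCtrl. All siRSL24D1 libraries lay just below all siCtrl libraries, as they did for 26.2% of all genes. The log2 fold change was -0.07, with a 95% interval from -0.17 to 0.02 (adjusted p = 0.196), and it passed the test only without siCtrl 3 (log2 fold change -0.11, adjusted p = 0.0453). Beta-catenin is regulated mainly through the stability of the protein, which was not measured.

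Lef1 encodes a TCF/LEF factor that acts mainly as an activator and is itself a target gene. It was at 14.2, 10.4 and 15.4 CPM in siRSL24D1, against 6.47, 7.31 and 10.9 CPM in siCtrl. The groups overlapped, since siRSL24D1 2 lay below siCtrl 3. The means were 13.3 ± 2.64 CPM in siRSL24D1 and 8.22 ± 2.34 CPM in siCtrl (SD, n = 3 each), a log2 fold change of 0.69 ± 0.21 (SE; edgeR adjusted p = 0.0285). The call was lost when siRSL24D1 1 (adjusted p = 0.0911), siRSL24D1 3 (0.0992), siCtrl 1 (0.0784) or siCtrl 2 (0.0957) was left out.

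The other members of the factor family did not pass the test. Tcf7, an activator and the most abundant of them per transcript length, was at 38.7, 34.9 and 42.5 CPM in siRSL24D1, against 36.9, 38.3 and 48.1 CPM in siCtrl, a log2 fold change of -0.09 with a 95% interval from -0.34 to 0.17 (adjusted p = 0.557). Tcf7l1, the repressor, was at 7.87, 4.25 and 9.20 CPM in siRSL24D1, against 4.66, 4.98 and 10.3 CPM in siCtrl. Tcf7l2, which can act in either way, was at 7.36, 4.87 and 8.33 CPM in siRSL24D1, against 5.05, 5.16 and 7.97 CPM in siCtrl. For both of these, siRSL24D1 2 lay with siCtrl 1 and siCtrl 2, and siCtrl 3 lay with siRSL24D1 1 and siRSL24D1 3. The 95% intervals of the log2 fold change were wide, from -0.72 to 0.90 for Tcf7l1 (estimate 0.09, adjusted p = 0.861) and from -0.36 to 0.71 for Tcf7l2 (estimate 0.17, adjusted p = 0.585), and both intervals include the fold change seen for Lef1. The direction of Tcf7l1 depended on single libraries: its log2 fold change was -0.11 without siCtrl 1, -0.08 without siCtrl 2, -0.14 without siRSL24D1 3 and 0.54 without siCtrl 3. That of Tcf7 was 0.030 without siCtrl 3.

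**Figure D2:**
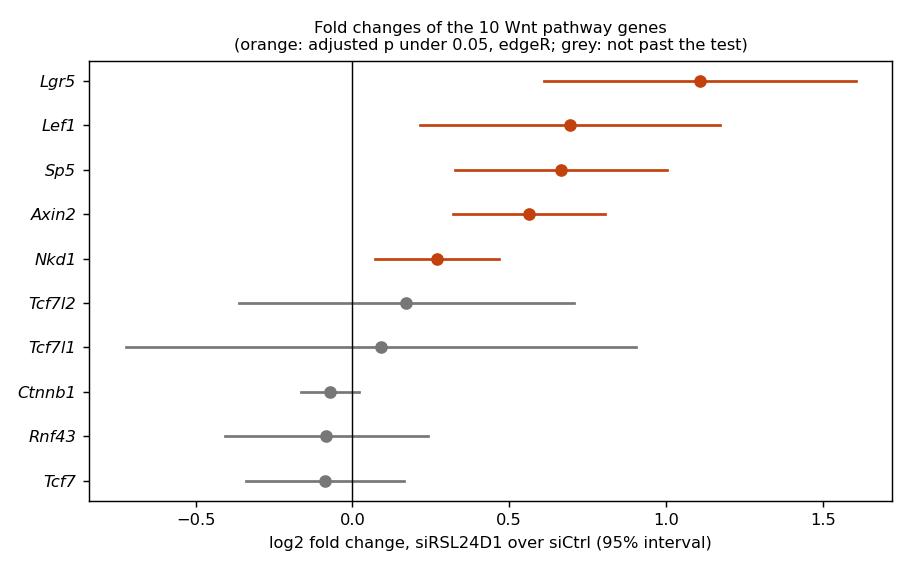
Log2 fold change of each gene, siRSL24D1 over siCtrl, as a point with its 95% interval. The 5 genes in orange passed the test, from Nkd1 at 0.27 to Lgr5 at 1.11, and the interval of Tcf7l1 is the widest.

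The balance within the TCF/LEF family was read from levels per kilobase of the longest annotated transcript, as a share of the 4 genes' sum in each library, which does not depend on scaling between libraries. Lef1 made up 16.8, 15.1 and 16.5% of the family in siRSL24D1, against 9.45, 10.2 and 11.1% in siCtrl. The lowest siRSL24D1 share was above the highest siCtrl share, although the Lef1 levels themselves overlapped. The mean difference was 5.85 percentage points, and it lay between 5.46 and 6.38 points when any 1 library was left out. Tcf7 was the main member in every library, at 64.4, 71.3 and 63.9% in siRSL24D1 and 75.9, 75.1 and 69.2% in siCtrl, and its shares overlapped between the groups. Tcf7l1 was at 10.6, 7.05 and 11.3% in siRSL24D1 and 7.78, 7.94 and 12.0% in siCtrl, which also overlapped. The summed level of the family was 23.7 ± 3.59 CPM per kb in siRSL24D1 and 22.8 ± 4.63 CPM per kb in siCtrl (SD, n = 3 each).

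**Figure D3:**
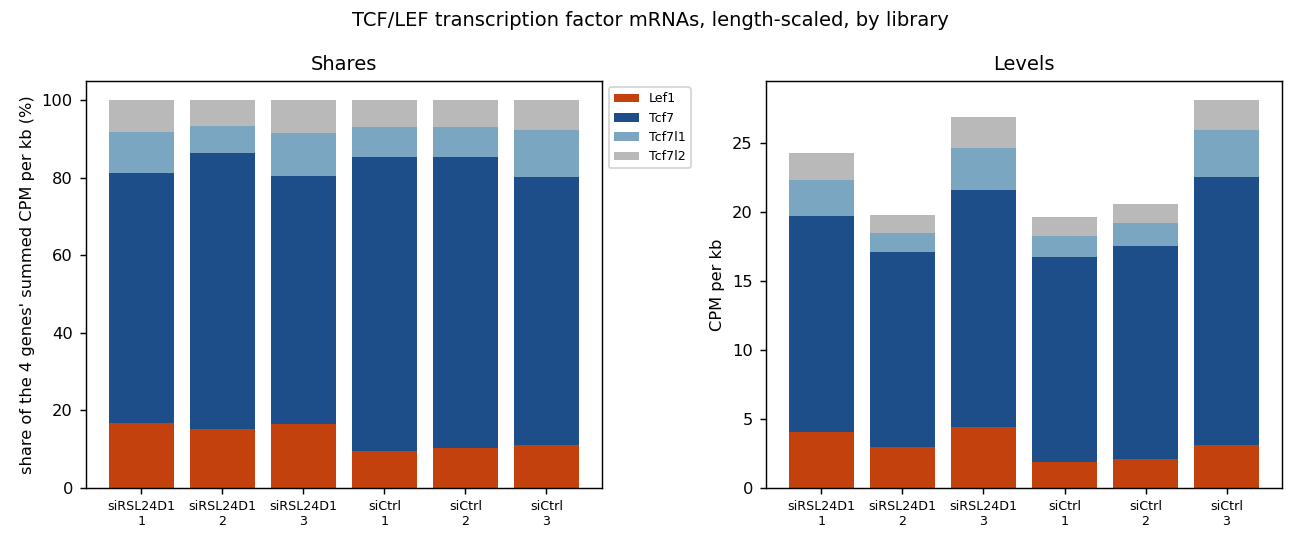
The left panel gives each factor's share of the summed CPM per kilobase of Lef1, Tcf7, Tcf7l1 and Tcf7l2 in percent, and the right panel their levels in CPM per kilobase, with 1 bar per library and siRSL24D1 left of siCtrl. The Lef1 share (orange) is 15.1% or more in each siRSL24D1 library and 11.1% or less in each siCtrl library, whereas the bar heights on the right are high in siCtrl 3 and low in siRSL24D1 2.

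Sp5, a zinc finger transcription factor and a direct target gene, was at 12.6, 15.3 and 17.1 CPM in siRSL24D1, against 8.50, 8.45 and 11.4 CPM in siCtrl. Its promoter window, printed above, holds the core 2 times, as does 1 of the 4 windows of Lef1. The windows of Axin2 and Nkd1, which also rose, lack the core, and Lgr5, which rose too, had no window. A link between the core and the levels was not tested. The groups did not overlap for Sp5, with siCtrl 3 again the highest of its group. Its log2 fold change was 0.66 ± 0.15 (SE; adjusted p = 0.0078), and the call held in all 16 settings (log2 fold change 0.56 to 0.81).

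Per transcript length, the order of the levels was the same in both groups. It ran from Ctnnb1, at 243 CPM per kb in siRSL24D1 and 255 CPM per kb in siCtrl, through Tcf7, Axin2, Sp5, Lef1, Tcf7l1, Tcf7l2, Nkd1 and Rnf43 to Lgr5, at 0.248 and 0.115 CPM per kb in these groups. Lef1 and Tcf7l1, and Tcf7l1 and Tcf7l2, overlapped between libraries in both groups. Tcf7l2 and Nkd1 overlapped in siRSL24D1 alone, and Nkd1 and Rnf43 in siCtrl alone. Axin2 came closer to Tcf7, its neighbour above, in siRSL24D1, at 12.6 against 15.7 CPM per kb, than in siCtrl, at 8.55 against 16.6 CPM per kb.

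In total, 117 distinct genes were listed by role, these 10 included. Of the listed genes 110 were tested, 41 rose and 13 fell, beside 21.2% and 20.0% of all genes. The 10 genes and the lists were chosen with earlier results of these data known, so their counts are descriptions only. Among 17 tested Wnt ligands 13 rose and 1 fell, against the same all-gene shares of 21.2% and 20.0%, at a median log2 fold change of 0.63 (all genes 0.02), and 11 to 13 rose in the 16 alternative settings. Wnt3, a canonical ligand expressed at the start of gastrulation, was at 32.8 ± 2.36 CPM in siRSL24D1 and 17.4 ± 0.95 CPM in siCtrl (SD, n = 3 each), a log2 fold change of 0.92 (adjusted p = 6.6e-05). Wnt5a, mostly a non-canonical ligand, rose by 0.85 on the log2 scale, Wnt6 by 0.79 and Wnt4 by 0.58. The ligand that fell was Wnt7a, at -0.60, named for its direction after the values were seen. Wnt1 had no count in any library. Of the genes for ligand release, Wls, the carrier that takes Wnt proteins to the cell surface, rose by 0.32, and Porcn, the enzyme that attaches their lipid, was at -0.50 (adjusted p = 0.00198).

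Of 12 tested Frizzled and Lrp genes, 4 rose and 3 fell, at a median of -0.10, counts near the all-gene shares of 21.2% and 20.0%. Fzd10 rose to 51.1 ± 3.03 CPM in siRSL24D1, against 31.3 ± 1.98 CPM in siCtrl (SD, n = 3 each; edgeR adjusted p = 0.000137), and Fzd1 rose by 0.85 on the log2 scale. Fzd7 was at -0.35 and Fzd2 at -0.35. After a correction for transcript length, 5 receptor genes fell. In the R-spondin axis, with counts also near these shares, 2 of 8 tested genes rose, Lgr5 and the ligand Rspo3 (0.27, adjusted p = 0.00888), and 1 fell, Lgr4, a relative of Lgr5, at 108 ± 3.97 CPM in siRSL24D1 and 127 ± 10.6 CPM in siCtrl (SD, n = 3 each). The log2 fold change of Lgr4 was -0.23 (edgeR adjusted p = 0.0212), and its call was lost without siRSL24D1 1 (0.056) or siRSL24D1 2 (0.0573). The related genes Lgr4 and Lgr5 thus had opposite directions.

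Of 12 tested extracellular antagonists, 3 rose and 1 fell, at a median of 0.12; the share that rose was near the 21.2% of all genes, and 20.0% of all genes fell. Sfrp1, which binds Wnt proteins, was at 19.8 ± 2.20 CPM in siRSL24D1 and 30.9 ± 0.36 CPM in siCtrl (SD, n = 3 each), a log2 fold change of -0.64 (edgeR adjusted p = 0.000459). Notum, an enzyme that removes the lipid of Wnt proteins and a feedback target, rose by 0.44 (adjusted p = 0.00335). Dkk1 (0.27, adjusted p = 0.0278) and Kremen1 (0.16, adjusted p = 0.0442), which act together on Lrp6, rose too, but the number that rose was 1 in the DESeq2 test and without siRSL24D1 1 or siRSL24D1 2. Dkk1 also lost its call without siCtrl 2 (0.0942) or siCtrl 3 (0.0739), and Kremen1 did not pass without siRSL24D1 3 (0.118), siCtrl 1 (0.137) or siCtrl 2 (0.132), with upper-quartile scaling (0.0691) or without a filter (0.0624).

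Of 20 tested cytoplasmic components, 5 rose and 2 fell, at a median of 0.07, beside 21.2% and 20.0% of all genes, so the share that rose was near that of all genes. Beside Axin2 and Nkd1 these were Apc2, a relative of Apc, at 0.69 (adjusted p = 0.0039), the kinase gene Csnk1d at 0.15 (adjusted p = 0.0182) and Axin1 at 0.14 (adjusted p = 0.0431), named because few genes rose. The Axin1 call was lost with DESeq2 size factors (0.0666), upper-quartile scaling (0.103), no filter (0.066), the DESeq2 test (0.117) or a length correction (0.0772), and without siRSL24D1 2 (0.115), siRSL24D1 3 (0.114), siCtrl 2 (0.184) or siCtrl 3 (0.109). The kinase gene Csnk1e was at -0.24 and Btrc, the ubiquitin ligase subunit that recognises marked beta-catenin, at -0.25. The number that rose was 2 without siCtrl 2 and 3 without siCtrl 1, without any 1 siRSL24D1 library, with upper-quartile scaling, without a filter and in the DESeq2 test. Csnk1d did not pass when siRSL24D1 1 (0.0517), siRSL24D1 2 (0.0546), siCtrl 1 (0.0605) or siCtrl 2 (0.084) was left out. After a correction for transcript length, 4 components fell. Apc and Gsk3b, core parts of the destruction complex, were at 0.13 (adjusted p = 0.235) and 0.26 (adjusted p = 0.175), and both passed without siCtrl 3 (Apc 0.21, adjusted p = 0.0398; Gsk3b 0.42, adjusted p = 0.00893). Apc was at -0.0073 after the length correction.

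Of 15 tested nuclear components, 3 rose and 0 fell, at a median of 0.17, beside 21.2% and 20.0% of all genes; 0 fell at an unadjusted p under 0.05 (edgeR), in the DESeq2 test or in limma-voom. The corepressor gene Tle4 rose to 148 ± 0.59 CPM in siRSL24D1, against 117 ± 5.85 CPM in siCtrl (SD, n = 3 each; edgeR adjusted p = 0.000777). Pygo1, a coactivator of beta-catenin, rose by 0.38 (adjusted p = 0.0307), a call that was lost after a length correction (0.136), in the DESeq2 test (0.0804) and when siRSL24D1 2 (0.0709), siRSL24D1 3 (0.0988), siCtrl 2 (0.0967) or siCtrl 3 (0.0857) was left out. The number of nuclear components that rose was 1 without siCtrl 2 or siRSL24D1 3, and 2 fell without siCtrl 3. At adherens junctions, where beta-catenin binds cadherins, Ctnna1 fell by 0.23 on the log2 scale and the other 3 partners did not pass, though 1 rose after the length correction and 2 without siCtrl 3.

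Among 12 further target genes of the pathway, 8 rose and 0 fell, at a median of 0.39, beside 21.2% and 20.0% of all genes; 7 to 8 rose and 0 fell in the 16 alternative settings, and 0 fell at an unadjusted p under 0.05 (edgeR). Fst, an antagonist of activin, rose to 57.5 ± 3.19 CPM in siRSL24D1, against 29.6 ± 3.44 CPM in siCtrl (SD, n = 3 each), the largest rise in this list, with a log2 fold change of 0.96 (edgeR adjusted p = 0.000125). Gbx2, a homeobox gene, rose by 0.85, Myc by 0.53 and Ccnd1, a D-type cyclin, by 0.40. The others that rose were T, Sp8, Tnfrsf19 and Cd44, of which Cd44 did not pass without siCtrl 2 (0.0552). Many of these genes also respond to other pathways. Of 7 genes that Tcf7l1 represses in mouse embryonic stem cells, 1 rose and 3 fell, beside 21.2% and 20.0% of all genes. The median log2 fold change of the 7 genes was -0.17. Nr5a2 rose (0.32), while Nanog (-0.49), Tfcp2l1 (-0.27) and Esrrb (-0.17) fell. Nanog and Esrrb are also counted above among the pluripotent cell markers that fell. The number that fell was 1 without siCtrl 2 or siRSL24D1 3. Tfcp2l1 lost its call with library totals (adjusted p = 0.0692) and when any 1 library other than siRSL24D1 1 was left out (adjusted p up to 0.103), and Esrrb lost its call without siCtrl 2 (0.0636) or siRSL24D1 3 (0.0576).

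**Figure D4:**
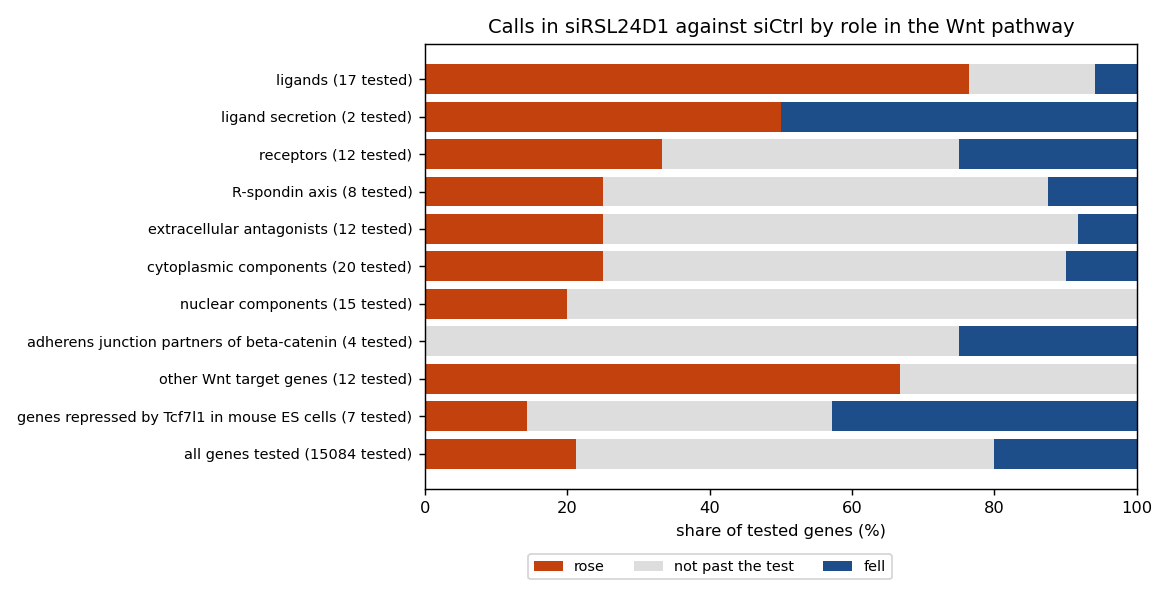
Share of the tested genes of each role list, in percent, that rose (orange), did not pass the test (grey) or fell (blue) in siRSL24D1 against siCtrl, with all genes tested in the bottom bar. The ligands (13 of 17) and the other target genes (8 of 12) have the longest orange bars among lists of more than 2 genes. Wnt2, among the 13, was tested only through its counts in siRSL24D1.

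**Figure D5:**
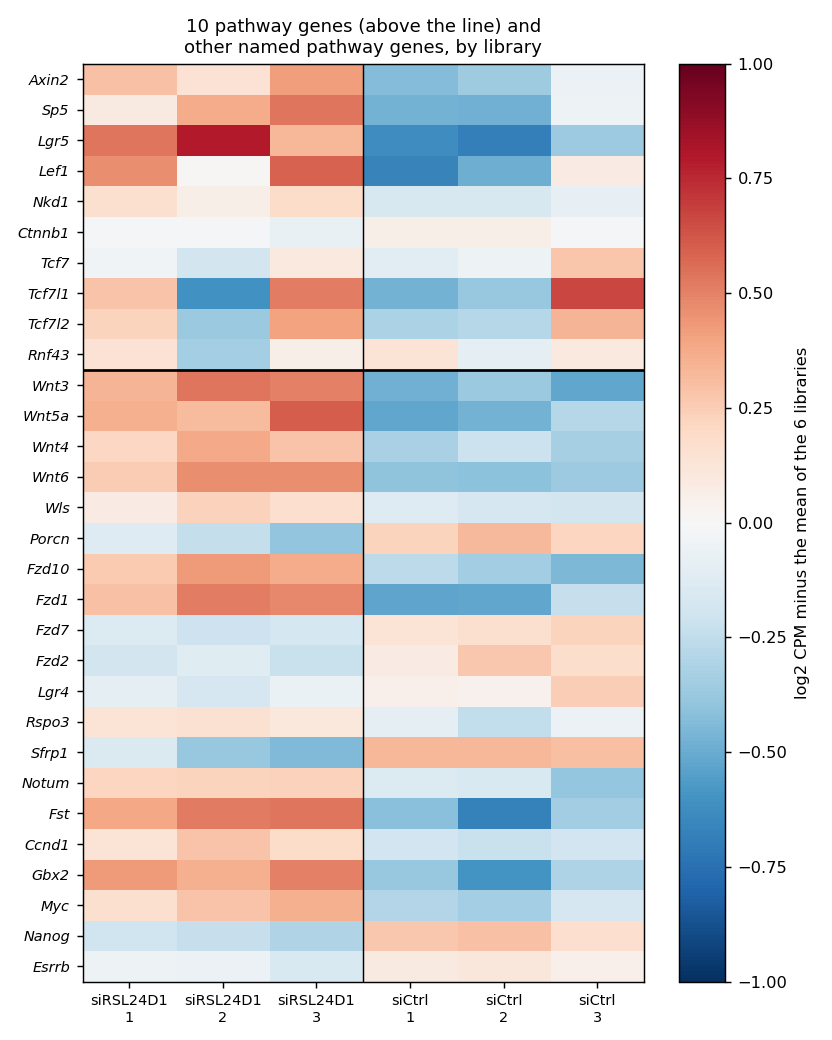
Log2 CPM of the 10 genes and of 20 other named pathway genes in each library, minus the gene's mean over the 6 libraries, with siRSL24D1 left of siCtrl and colour from blue (low) to red (high). Wnt3, Wnt5a, Wnt4, Wnt6, Fst, Ccnd1, Gbx2 and Myc separate the groups, but were picked by their small p in this same comparison. The target genes Lef1 and Rnf43 overlap between the groups. Tcf7l1 and Tcf7l2 are low in siRSL24D1 2, siCtrl 1 and siCtrl 2.

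Markers of other cell types were read beside all-gene shares of 21.2% rising and 20.0% falling. Of 6 primitive streak markers 3 rose (T, Mixl1 and Eomes) and 0 fell, with a summed level of 181 to 198 CPM in siRSL24D1 and 138 to 147 CPM in siCtrl; T is also listed as a target gene. Of 6 neuroectoderm markers 4 rose and 0 fell, with sums of 324 to 391 CPM in siRSL24D1 and 235 to 245 CPM in siCtrl. The 4 were Nes, Tubb3, Neurod1 and Zic1, while Sox1 and Pax6 did not pass. Nes made up most of these sums, at 301 ± 29.6 CPM in siRSL24D1 and 211 ± 4.01 CPM in siCtrl (SD, n = 3 each). Zic1 had 14, 17.0 and 11 estimated counts in siRSL24D1 and 3, 5 and 0 in siCtrl. It was tested only through the group where it was higher, so its rise carries no weight. Of 4 tested trophoblast markers 2 rose and 0 fell, with sums of 43.6 to 44.4 CPM in siRSL24D1 and 34.3 to 37.0 CPM in siCtrl. Of 5 tested endoderm markers 2 rose (0 in the DESeq2 test) and 1 fell, with sums of 17.4 to 18.3 CPM in siRSL24D1 and 17.3 to 19.5 CPM in siCtrl. Of 5 tested fibroblast markers 1 rose and 2 fell, with sums of 114 to 137 CPM in siRSL24D1 and 117 to 150.2 CPM in siCtrl, and for both of these lists the sums overlapped. For the streak, neuroectoderm and trophoblast lists, 0 markers fell at an unadjusted p under 0.05, in the DESeq2 test or in limma-voom either. No marker was at 0 in all libraries, but Elf5, Sox7 and Lum were too low to be tested. The part of these cell types in the levels of the Wnt genes was not tested, and in bulk RNA fewer cells of a type and less RNA per cell cannot be told apart.

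The exons of 4 of the 10 genes overlap those of another gene in GENCODE M21. For Lef1, 13.7% of the exonic bases are shared with an antisense gene, Gm43352, and for Ctnnb1 14.6% are shared with Ulk4 on the opposite strand. For Axin2 and Tcf7l1 the share is 3.80% and 4.56%, in both cases with an antisense gene. The strand setting of the counting is not given in the sources used here, so reads of such pairs could not be separated.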

How the data were processed

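The 6 libraries were made from rRNA-depleted total RNA with a stranded kit, per the labels' protocols. The authors deposited estimated counts per gene symbol, with no scaling between libraries. Named in the submitters' processing notes are STAR 2.7.0f, Salmon 0.14.1 and GRCm38. Other steps are not stated there.

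Estimated counts were rounded, filtered with filterByExpr (minimum count 10, minimum total 15), scaled by TMM and tested with the two-sided quasi-likelihood F test of edgeR 4.0.16 in R 4.3.3, siRSL24D1 against siCtrl with no other term, with Benjamini-Hochberg adjustment over 15084 genes. The step was checked on simulated counts. The p-values rest on the spread between the deposited triplicates, which the series calls independent. The test also draws each gene's variance towards a trend over all genes tested. Standard errors and 95% intervals were derived from the F statistic. Lengths and positions come from GENCODE M21 (22304 of 22332 symbols found; basic set, longest transcript), promoters from RefSeq.

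The 10 genes and all lists were chosen with earlier results of these data known. Beside the 10 genes and Rsl24d1, the rule names up to 4 called genes with the smallest p per list with an average log2 CPM of 1 or more, and otherwise the gene with the smallest p. Axin1, T, Sp8, Tnfrsf19, Cd44, Wnt7a, Wnt1, Wnt2, Wnt2b, Wnt9b, Wnt10a, Wnt11, Apc, Gsk3b and the cell type markers were named after their values were seen. Alternatives were other scalings, filters and tests (DESeq2 1.42.0, limma-voom 3.58.1), a length correction, the replicate number as a block, and leaving out each library.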

Additional observations from a re-analysis of the deposited data

How the results depend on the processing

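Across 16 alternative settings, Axin2, Sp5 and Lgr5 kept their direction and passed the test. The number of the 10 genes that rose was 3 to 5 when a library was left out and 4 to 5 in the other settings, and the number that fell was 0 to 1 when a library was left out and 0 otherwise. Log2 fold changes that changed sign were those of Tcf7 (-0.16 to 0.030), Tcf7l1 (-0.14 to 0.54) and Rnf43 (-0.18 to 0.052) over the runs that left out a library; the cause was not tested. Without length scaling the Lef1 share of the factor family differed by 6.99 percentage points. Genes past the test numbered 6212, and 4357 to 6641 when a library was left out. Of the 110 tested genes of all role lists, 54 passed, and 41 to 57 when a library was left out. Of all genes, 3191 rose and 3021 fell, against 3582 and 2741 with library totals, 3018 and 3158 with DESeq2 size factors, and 2773 and 3383 with upper-quartile scaling. The replicate numbers did not pair the libraries: the deviations of same-numbered libraries correlated at -0.22, 0.14 and 0.17, and not every library correlated best with its own number. With the replicate number as a block, 6431 genes passed, and 4 of the 10 genes rose; Nkd1 was at adjusted p = 0.0533, and at 0.0633 with a length correction as well. Under the block Pygo1 (0.0501) and Axin1 (0.0608) also lost their calls, as did Kremen1 with block and length correction (0.0558), while Gsk3b (0.0211) and 1 adherens junction partner rose. Apc was at -0.0073 with the length correction and at -0.0072 with the block added; the cause was not tested. Depth limits Lgr5 most, with 16.0 to 48.3 estimated counts per library.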
